A study of Mus musculus with 9 samples.

Results

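The 36 genes described here encode the enzymes of glycolysis, the transporters that bring glucose in and carry lactate out, and the main parts of the cellular response to low oxygen. They were taken by symbol from a list of glycolytic, transport and hypoxia genes, by their known roles, and all 36 were among the 43472 genes of the raw count table. The list holds 23 genes of glycolysis, transport and its direct regulators and 13 genes of oxygen sensing and its targets. The study sequenced RNA from 3 tissues of C57BL/6J mice, with 3 libraries each. ImC is immature cartilage, labelled as immature chondrocytes, MatC is mature cartilage, labelled as mature chondrocytes, and Bone is bone, labelled as osteoblasts. No group carries a named allele or treatment, and the sources used here do not give age, sex or anatomical site. Nor is it stated whether the 3 libraries of a group represent different animals. The p-values therefore rest on library-to-library spread alone, and that spread may be technical.

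Glycolysis splits glucose into pyruvate in the cytosol and yields ATP without oxygen; lactate dehydrogenase then turns pyruvate into lactate, which leaves the cell by monocarboxylate transporters. When oxygen is low, the prolyl hydroxylases that mark HIF alpha subunits for destruction slow down, and the stabilised subunits pair with ARNT and raise transcription of glycolytic and angiogenic genes. Growth cartilage has no blood vessels, and its chondrocytes are known to depend on HIF-1 and on glycolysis, while bone is vascular and osteoblasts are also strongly glycolytic.

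HIF dimers bind a short core sequence, and promoter stretches of 4 members are shown to give the letters that the results on these genes concern. Of the 36 members, 33 had a promoter window in RefSeq, counted as 250 bases before to 50 bases after the start of transcription, in 47 windows. Slc2a3, Epas1 and Ndrg1 were not matched. The core ACGTG was searched for on both strands, where its complement reads CACGT, and so was the core GCGTG, whose complement reads CACGC. The palindrome CACGTG holds the first core on each strand and so counts as a pair of positions. At least 1 core was present in 37 of the 47 windows, 78.7%, against 43.8% of all 32851 windows of the same length. The core ACGTG by itself, on either strand, was present in 53.2% of the members' windows against 19.6% of all. Members with more than 1 window count more than once, and a match of these letters is a description, not a bound site. The stretches below are from RefSeq, build GRCm38.p6, written 5′ to 3′ on the gene's strand, with the core letters in capitals.
Ldha, lactate dehydrogenase A, is shown because its window held 7 core positions, of which 6 lie in these 285 bases (chr7:46845554-46845838, plus strand).
Ldha: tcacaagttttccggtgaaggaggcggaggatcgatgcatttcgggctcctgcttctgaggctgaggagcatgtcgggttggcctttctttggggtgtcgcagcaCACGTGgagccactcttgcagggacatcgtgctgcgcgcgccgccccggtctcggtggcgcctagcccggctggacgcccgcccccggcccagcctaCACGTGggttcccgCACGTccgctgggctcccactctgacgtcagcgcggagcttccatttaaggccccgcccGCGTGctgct
Bnip3, a mitophagy receptor, is shown because all 5 of its core positions lie in 237 bases (chr7:138909520-138909756, minus strand).
Bnip3: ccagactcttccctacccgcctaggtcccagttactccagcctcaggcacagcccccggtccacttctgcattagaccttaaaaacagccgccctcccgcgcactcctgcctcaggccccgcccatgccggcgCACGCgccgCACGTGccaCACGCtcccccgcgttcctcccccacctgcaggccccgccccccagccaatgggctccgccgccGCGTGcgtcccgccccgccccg
Hk2, hexokinase 2, whose level ranked ImC above MatC above Bone, held 2 core positions in 250 bases (chr6:82774455-82774704, minus strand).
Hk2: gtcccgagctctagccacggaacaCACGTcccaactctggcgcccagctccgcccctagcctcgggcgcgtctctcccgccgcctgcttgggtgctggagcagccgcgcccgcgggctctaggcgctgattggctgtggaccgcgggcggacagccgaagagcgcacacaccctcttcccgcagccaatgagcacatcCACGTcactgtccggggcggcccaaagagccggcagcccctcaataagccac
Car9, carbonic anhydrase 9, with nearly all of its reads in ImC, held 1 core position, shown in 30 bases around it (chr4:43506996-43507025, plus strand).
Car9: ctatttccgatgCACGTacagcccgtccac
The share of all windows with 5 or more core positions was 1.66%, and 3 of the members' 47 windows reached it, those of Ldha and Bnip3 and 1 of Hk1.

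The libraries held 7913684 to 23159547 counts. Mitochondrial genes took 32.0% to 55.0% of them in ImC, 33.7% to 82.3% in MatC and 7.24% to 8.91% in Bone, so MatC replicate 3 had only 1904092 counts from other genes, and 3 reads there correspond to 0.849 counts per 1000000 (CPM, after scaling by the trimmed mean of M values, TMM) against at most 0.257 elsewhere. Summed immature chondrocyte markers were 15329 to 20982 CPM in ImC, 10356 to 22271 in MatC and 2714 to 3218 in Bone. In Bone most of this sum was Col11a1, at 2126 to 2699 CPM. In MatC against ImC the markers went both ways. Of the 12, 8 had a negative log2 fold change, such as Sox5 (mean 297 to 67.7 CPM), and others rose, such as Comp (250 to 1079). Col10a1, the collagen of hypertrophic cartilage, was 817 to 4760 CPM in MatC and at most 2.48 in any other library. Summed osteoblast markers were 80403 to 95824 CPM in Bone, 1892 to 28528 in MatC and 524 to 583 in ImC, and Bglap, which encodes osteocalcin, did not exceed 3.14 CPM in Bone. Red cell, endothelial, leukocyte and osteoclast markers were present in both Bone and MatC: the summed red cell markers were 6439 to 9212 CPM in Bone, 874 to 3505 in MatC and 9.75, 21.0 and 1424 in the 3 ImC libraries. In bulk samples such as these, fewer cells of a type and less RNA per cell cannot be told apart. The part of other cell types in the differences below was not tested.

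Bone held less mRNA of many glycolytic genes than immature cartilage. Of the 36 genes, 14 fell and 3 rose in Bone against ImC (edgeR quasi-likelihood test, adjusted p under 0.05 over 14257 genes), which is 38.9% and 8.33% of the members; over all genes 31.1% were called, 16.8% lower and 14.3% higher in Bone. Epas1, Ankrd37, Car9 and Car12, among those called, passed the filter on low counts only with tissues where they are high. The members' median log2 fold change was -0.90 and that of all genes -0.02. All 10 glycolysis and transport genes that were called fell: Hk2, Pfkp, Eno1, Eno2, Pkm, Ldhb, Slc2a1, Slc2a3, Slc16a3 and Pfkfb3. Of these 23 genes, 22 had a negative log2 fold change, the exception being Pfkfb4. When libraries were scaled by their total counts alone, the members' median was -0.49 against 0.46 for all genes, and 5 of the 17 members were still called (Hk2, Slc16a3, Epas1, Car9 and Car12), so 8 of the 10 glycolysis and transport genes lost their call. MatC differed from ImC at 5 members, 1 higher (Epas1) and 4 lower (Hk2, Eno2, Egln3, Car9), where 7.71% of all genes were called, 5.41% higher and 2.29% lower. Bone differed from MatC at 3 members, all lower (Hk2, Slc16a3, Car12), where 6.05% of all genes were called, 1.36% higher and 4.69% lower. The Bone and ImC libraries did not overlap for 22 members, 4 higher and 18 lower in Bone, where 59.0% of all genes did not overlap, 30.1% higher and 28.8% lower. In Bone against MatC 15 did not, 4 higher and 11 lower (all genes 35.6%, 17.9% and 17.7%), and in MatC against ImC 9 did not, 2 higher and 7 lower (all genes 23.9%, 11.4% and 12.5%). The 3 comparisons share libraries by pairs and are therefore not independent of each other.

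**Figure D1:**
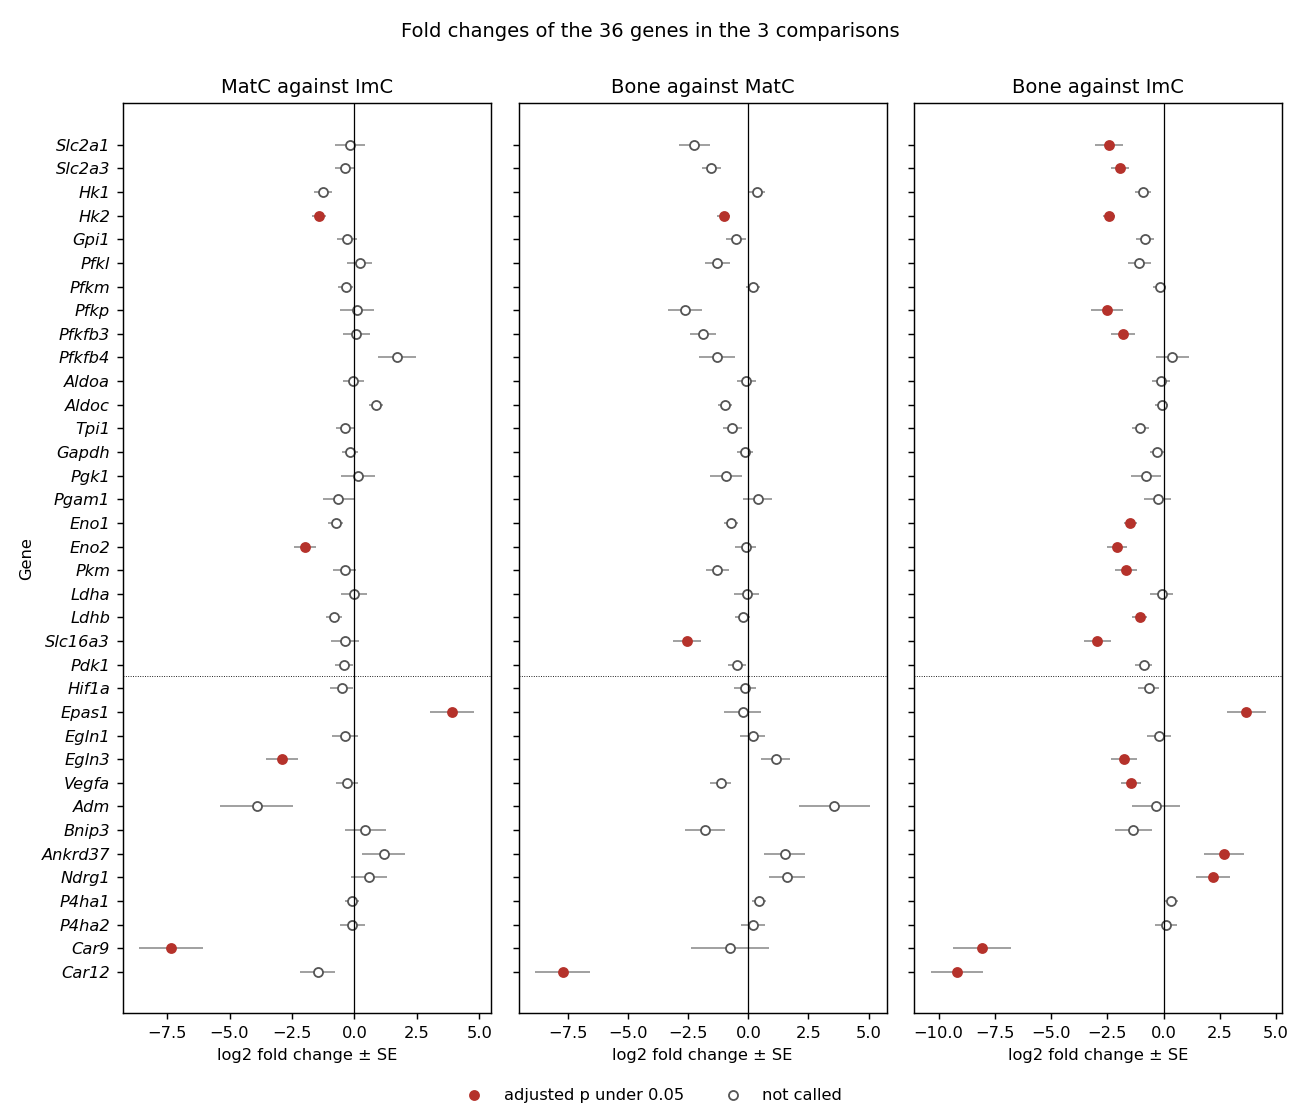
Log2 fold change of each of the 36 genes for MatC against ImC, for Bone against MatC and for Bone against ImC (x axes, with bars of 1 standard error), genes ordered by role with the hypoxia genes below the dotted line; filled points are called at an adjusted p under 0.05. Of the glycolysis and transport genes, 22 of 23 lie left of 0 in Bone against ImC, and Epas1 lies right of 0 in both comparisons with ImC.

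Glucose enters these cells through facilitated transporters, and both members of that step fell from ImC to Bone. Slc2a1, which encodes the widespread transporter GLUT1, stood at 88.7, 159 and 36.5 CPM in ImC replicates 1, 2 and 3, 80.6, 47.3 and 123 in MatC and 6.82, 28.3 and 18.0 in Bone. The 3 Bone libraries were the lowest of the 9, while ImC and MatC overlapped. Slc2a1 was 5.37-fold lower in Bone than in ImC (log2 fold change -2.43 ± 0.63 SE, adjusted p = 0.0169), and the call ended without Bone replicate 1 or 3 (adjusted p at most 0.105 over the alternatives). Bone against MatC gave -2.24 ± 0.63 (adjusted p = 0.0651), which was not called although the groups did not overlap. Slc2a3, which encodes the high-affinity transporter GLUT3, was lower in level, at 11.1, 13.6 and 10.8 CPM in ImC, 12.7, 6.84 and 7.35 in MatC and 2.44, 2.40 and 4.45 in Bone. Bone was again the lowest group, 3.80-fold below ImC (log2 fold change -1.93 ± 0.41, adjusted p = 0.00721), a call that no library's removal ended but that was lost when libraries were scaled by total counts alone (adjusted p = 0.193).

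Hexokinase, which traps glucose in the cell as glucose-6-phosphate, was the only step with a member called in all 3 comparisons. Hk2, the inducible isoform (chromosome 6, 82725025 to 82774454, GRCm38), measured 107, 190 and 139 CPM in ImC, 53.5, 54.9 and 54.9 in MatC and 25.5, 26.0 and 28.9 in Bone. No library of one tissue overlapped another, and the MatC values spread by less than 2 CPM. The log2 fold change was -2.44 ± 0.27 in Bone against ImC (5.43-fold lower, adjusted p = 0.000340), a call kept under all 17 alternatives, and -1.42 ± 0.26 in MatC against ImC (adjusted p = 0.0146, and at most 0.0890 with only these 2 groups fitted or without scaling factors). The step from MatC to Bone was -1.02 ± 0.26 (adjusted p = 0.0483) and held in only 5 of 17 alternatives: it was lost without ImC replicate 1, any MatC library or any Bone library, and scaling by total counts alone gave 0.000998 with an adjusted p of 0.999. Hk1, the constitutive isoform, was 25.7 ± 8.07 CPM (mean ± SD, n = 3) in ImC, 10.5 ± 4.12 in MatC and 13.6 ± 1.42 in Bone, and was called in no comparison (adjusted p = 0.0578, 0.605 and 0.0710 for MatC against ImC, for Bone against MatC and for Bone against ImC).

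The mix of hexokinases differed by tissue as well. Hk1 took 14.1%, 15.1% and 15.5% of the reads of the 2 genes in ImC, 13.9%, 21.7% and 12.2% in MatC and 31.9%, 35.2% and 33.6% in Bone. The Bone share was the highest, 18.7 percentage points above ImC and 17.6 above MatC, with no overlap. Each of these differences had an exact two-sided permutation p of 0.1, the smallest that 3 against 3 can give, and an adjusted p of 0.2 over the 34 isoform comparisons made. Read shares do not depend on how libraries are scaled, and per length Hk1 took 10.9% in ImC and 26.1% in Bone.

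Glucose-6-phosphate isomerase, the next step, was 160 ± 40.6, 131 ± 76.8 and 91.1 ± 11.6 CPM of Gpi1 in ImC, MatC and Bone and was not called. Phosphofructokinase, the committed and regulated step, has a liver, a muscle and a platelet isoform. Pfkp, the platelet isoform, measured 12.4, 33.8 and 8.97 CPM in ImC, 11.3, 7.90 and 41.3 in MatC and 2.06, 3.25 and 4.28 in Bone. All Bone libraries lay below all cartilage libraries, and the cartilage libraries varied several-fold. The fall from ImC to Bone was -2.53 ± 0.71 on the log2 scale (5.76-fold, adjusted p = 0.0227), and the call ended without ImC replicate 2 or any 1 Bone library (adjusted p up to 0.0867 over the alternatives). Pfkl, the liver isoform, was 50.1 ± 16.4, 58.1 ± 42.7 and 23.7 ± 8.53 CPM, and Pfkm, the muscle isoform, 22.0 ± 6.46, 17.2 ± 3.12 and 19.7 ± 0.352; neither was called in any comparison. Pfkm took a mean of 43.4% of the step's reads in Bone, against 24.7% in ImC and 22.4% in MatC, with no overlap (exact permutation p = 0.1 for each, adjusted p = 0.2), while Pfkp took 6.82% in Bone, 20.4% in ImC and 19.1% in MatC. Per length, the Pfkm share was 61.7% in Bone, 42.8% in ImC and 38.4% in MatC and the Pfkp share 2.44%, 9.31% and 8.78%, and Pfkl took 35.9% in Bone, below Pfkm, where by reads it took 49.8%. Exons of Pfkm and Pfkp overlap Senp1 and Pitrm1 on the opposite strand, which reached 56.3 and 19.8 CPM, and, with a kit that keeps no strand information, the source of reads on the shared bases cannot be told apart.

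The bifunctional enzymes that set fructose-2,6-bisphosphate, the main activator of phosphofructokinase, differed from each other. Pfkfb3, which favours its synthesis, measured 34.7, 65.6 and 30.1 CPM in ImC, 26.6, 27.0 and 85.7 in MatC and 7.90, 11.2 and 18.5 in Bone. Bone was lower than both cartilages without overlap. The fall against ImC was 3.46-fold (log2 fold change -1.79 ± 0.54, adjusted p = 0.0299) and was no longer called without ImC replicate 1 or 2 or Bone replicate 1 or 2 (adjusted p up to 0.145 over the alternatives). Pfkfb4 was low, at 3.28 ± 2.34 CPM in ImC, 10.9 ± 10.8 in MatC, where replicate 3 held 23.2, and 4.30 ± 1.20 in Bone, and was not called.

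The middle of the pathway showed little that the test could separate. Aldoa, the main aldolase, was 334 ± 113, 325 ± 146 and 308 ± 107 CPM in ImC, MatC and Bone (adjusted p = 0.963, 0.937 and 0.844 in the order above), and Gapdh, often used as a reference gene, was 470 ± 168, 419 ± 88.6 and 382 ± 47.6 CPM (adjusted p = 0.792, 0.847 and 0.502). Triosephosphate isomerase, Tpi1, was 489 ± 130, 380 ± 151 and 240 ± 78.6 CPM, with Bone below ImC in every library (adjusted p = 0.0649). Pgk1, phosphoglycerate kinase, was 205 ± 169, 225 ± 94.5 and 118 ± 23.3 CPM, and Pgam1, phosphoglycerate mutase, 29.5 ± 21.7, 18.7 ± 9.22 and 24.7 ± 5.60. For both, the spread within ImC was wider than any difference between tissues. Aldoc, the minor aldolase, was 24.9, 19.7 and 33.4 CPM in MatC against 12.7 to 16.9 in ImC and 12.4 to 14.0 in Bone, higher in every MatC library but not called (adjusted p = 0.0966 against ImC and 0.0816 for Bone against MatC), and it took 7.75% of aldolase reads in MatC, 4.40% in ImC and 4.48% in Bone.

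The last steps to pyruvate were lower in Bone. Eno1, the general enolase, measured 306, 439 and 369 CPM in ImC, 197, 184 and 282 in MatC and 104, 162 and 135 in Bone. The tissues formed a descending series without overlap, but only its ends were called, at -1.48 ± 0.30 (2.78-fold lower in Bone than ImC, adjusted p = 0.00614); the call survived the removal of any library and ended when libraries were scaled by total counts alone (adjusted p = 0.245). Eno2, the neuronal enolase and a known HIF target, measured 5.50, 6.70 and 6.12 CPM in ImC, 1.52, 1.90 and 1.13 in MatC and 1.52, 1.20 and 1.58 in Bone. ImC was the high tissue, and MatC and Bone overlapped. Eno2 fell by 1.97 ± 0.45 on the log2 scale in MatC (adjusted p = 0.0290), a call kept in 6 of 17 alternatives and lost without any Bone library, ImC replicate 1 or 2, or MatC replicate 1 or 2 (adjusted p up to 0.133 over the alternatives), and by 2.08 ± 0.44 in Bone (adjusted p = 0.00712), where no library decided the call but scaling by total counts alone ended it (adjusted p = 0.128). Even in ImC, Eno2 took only 1.63% of enolase reads.

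Pyruvate kinase makes pyruvate and the second ATP-yielding step. Pkm measured 574, 812 and 819 CPM in ImC, 272, 388 and 1025 in MatC and 184, 273 and 235 in Bone. Every Bone library was below every ImC library, while MatC replicate 3 was the highest of all 9 and Bone replicate 2 was level with MatC replicate 1. Pkm was 3.19-fold lower in Bone than in ImC (log2 fold change -1.67 ± 0.47, adjusted p = 0.0229), and the call ended when any 1 Bone library was left out (adjusted p up to 0.127 over the alternatives). The counts do not separate the splice forms of Pkm.

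The mRNA of Ldha and that of Slc16a3, the 1 lactate export gene among the members, did not move together. Ldha, the subunit that favours lactate formation, measured 616, 1063 and 204 CPM in ImC, 694, 416 and 747 in MatC and 399, 697 and 677 in Bone. The means, 628 ± 429, 619 ± 178 and 591 ± 167, lay closer than the libraries within any tissue, and no comparison was called (adjusted p = 0.987, 0.960 and 0.915). Ldhb, the subunit that favours pyruvate, measured 33.3, 46.7 and 26.1 CPM in ImC, 23.6, 17.2 and 19.2 in MatC and 14.2, 23.5 and 13.2 in Bone; it was 2.08-fold lower in Bone than in ImC (log2 fold change -1.06 ± 0.33, adjusted p = 0.0343), a call lost without ImC replicate 1 or 2 or Bone replicate 1 or 3 (adjusted p up to 0.530 over the alternatives). Ldha took 93.1% ± 3.87 of lactate dehydrogenase reads in ImC, 96.7% ± 0.732 in MatC and 97.1% ± 0.841 in Bone, with ImC below both others in every library (exact permutation p = 0.1 for each, adjusted p = 0.2).

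Slc16a3, which encodes MCT4, the lactate exporter of strongly glycolytic cells, had the largest fall among the glycolysis and transport genes in Bone against ImC. It measured 34.2, 41.4 and 63.2 CPM in ImC, 17.7, 22.5 and 67.3 in MatC and 2.60, 7.88 and 7.66 in Bone. All Bone values were under all cartilage values. The fall from ImC was 7.68-fold (log2 fold change -2.94 ± 0.60, adjusted p = 0.00589), called under all 17 alternatives. The fall from MatC was 5.87-fold (-2.55 ± 0.59, adjusted p = 0.0328) and lost its call without ImC replicate 1, MatC replicate 3 or any Bone library (adjusted p up to 0.205 over the alternatives). Pdk1, which encodes a pyruvate dehydrogenase kinase, was 89.8 ± 44.4, 67.9 ± 17.7 and 48.7 ± 5.88 CPM and was not called (adjusted p = 0.529, 0.484 and 0.0893).

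Summed over the 17 enzyme genes of the pathway, the level was 3739 ± 1147 in ImC, 3107 ± 1116 in MatC and 2237 ± 510 CPM in Bone, and summed over the 3 transporters 153 ± 54.3, 128 ± 62.4 and 26.8 ± 13.6. Bone lay below every cartilage library for the transporters and overlapped MatC for the enzymes. Per kilobase of exon, the order in ImC began with Ldha (190 ± 130 CPM per kb), Tpi1 (178 ± 47.3), Pkm (147 ± 27.9), Aldoa (115 ± 38.8) and Gapdh (114 ± 40.7), neighbours that did not differ beyond their spread. In Bone it began with Ldha (178 ± 50.3), Aldoa (106 ± 36.7), Gapdh (92.3 ± 11.5) and Tpi1 (87.2 ± 28.6), and Pkm stood at 46.1 ± 8.9.

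**Figure D2:**
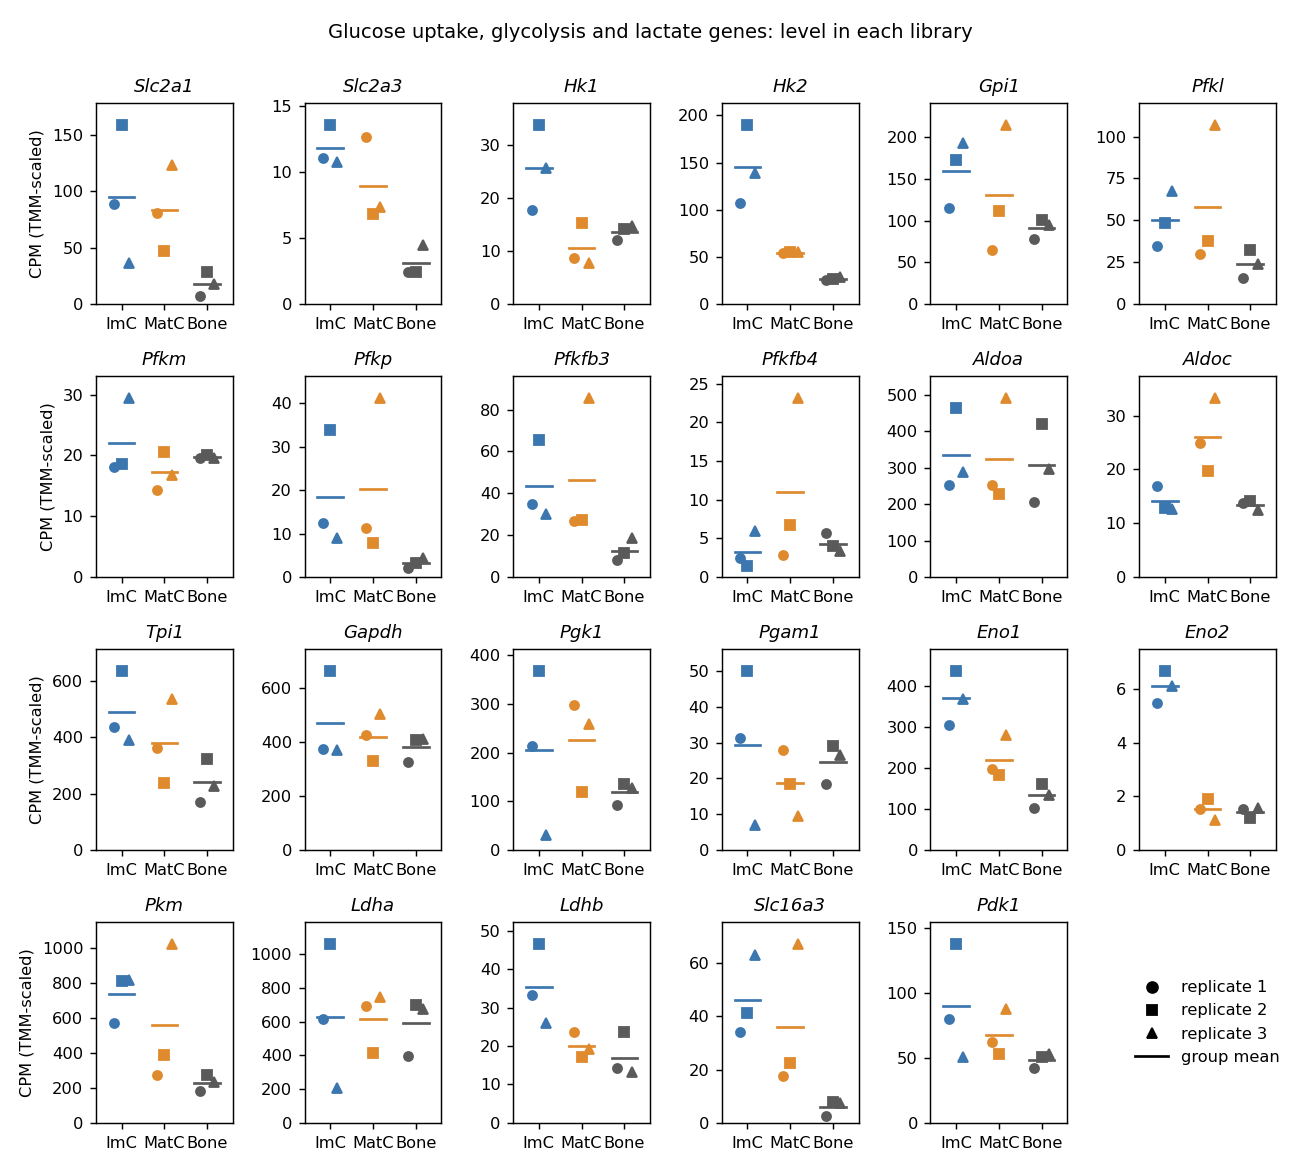
Level of each of the 23 glycolysis and transport genes (y axes, TMM-scaled CPM, each panel from 0) in the 3 ImC, 3 MatC and 3 Bone libraries, with 1 symbol per replicate number and a line at the mean. Slc2a1, Slc2a3, Slc16a3, Pfkp and Pfkfb3 sit lowest in all 3 Bone libraries, Hk2 and Eno1 step down from ImC to MatC to Bone, and Ldha, Aldoa and Gapdh overlap between tissues.

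**Figure D3:**
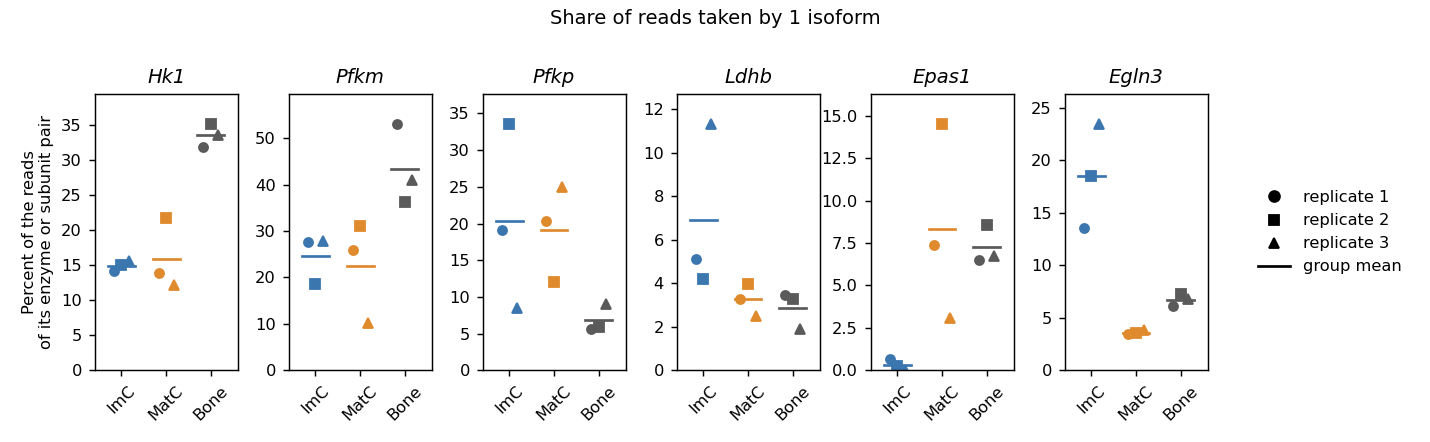
Share of reads (y axes, percent of the reads of the members of the step) taken by 1 isoform in each of the libraries of ImC, MatC and Bone, with 1 symbol per replicate number and a line at the mean. Hk1 is at 31.9% to 35.2% in Bone and at most 21.7% elsewhere, and Epas1 is at 0.651% or less in ImC and at least 3.10% in the other tissues.

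Of the 13 oxygen sensing and response genes, 3 rose and 4 fell in Bone against ImC, 23.1% and 30.8% where 14.3% and 16.8% of all genes did, and their median log2 fold change was -0.33. Among those called, Epas1, Ankrd37, Car9 and Car12 passed the filter on low counts only with tissues where they are high, so these shares are a description. Hif1a, the widespread oxygen-regulated subunit, measured 178, 246 and 57.4 CPM in ImC, 139, 74.3 and 124 in MatC and 99.3, 96.7 and 109 in Bone, and was called in no comparison (adjusted p = 0.528, 0.889 and 0.297). HIF-1 alpha is controlled mainly at the protein level, which these counts do not measure. Epas1, which encodes HIF-2 alpha (chromosome 17, 86753700 to 86833410), measured 1.17, 0.695 and 0 CPM in ImC, 11.1, 12.6 and 3.96 in MatC and 6.93, 9.08 and 7.83 in Bone. ImC held 28 Epas1 reads in all, against 339 in MatC and 373 in Bone, and the ImC libraries lay below all others. Epas1 rose by 3.91 ± 0.88 on the log2 scale from ImC to MatC (15.0-fold, adjusted p = 0.0279), a call kept in 8 of 17 alternatives and lost without any Bone library, ImC replicate 1 or 2, or MatC replicate 1 or 2 (adjusted p up to 0.130 over the alternatives). The rise from ImC to Bone was 3.67 ± 0.87 (12.8-fold, adjusted p = 0.0113) and was called under all 17 alternatives. Epas1 passed the filter on low counts only with its MatC or Bone libraries, since 2 of its 3 ImC libraries reached the cutoff. Its calls against ImC are therefore a description and no support. Epas1 took 0.311% of the reads of the 2 alpha subunits in ImC, 8.34% in MatC and 7.27% in Bone (exact permutation p = 0.1 against ImC for each, adjusted p = 0.2). Endothelial cells are known for high Epas1, and the 9 endothelial markers summed to 4.32 to 20.9 CPM in ImC, 20.4 to 297 in MatC and 59.1 to 175 in Bone; their part in the rise was not tested.

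Egln1 and Egln3 encode the prolyl hydroxylases PHD2 and PHD3; Egln3 is itself a well-known HIF target. Egln1 was 59.1 ± 49.4 in ImC, 45.4 ± 4.60 in MatC and 51.5 ± 6.47 CPM in Bone and was not called. Egln3 measured 7.58, 25.6 and 4.84 CPM in ImC, 1.82, 1.55 and 1.70 in MatC and 2.98, 4.54 and 3.72 in Bone. ImC was the highest and MatC the lowest tissue, with no overlap among the 3. Egln3 fell by 2.91 ± 0.63 on the log2 scale from ImC to MatC (7.50-fold, adjusted p = 0.0247), a call lost without ImC replicate 2 or MatC replicate 1 or 2 (adjusted p up to 0.0933 over the alternatives). The change from ImC to Bone was -1.76 ± 0.59 on the log2 scale (adjusted p = 0.0435) and held in only 5 of 17 alternatives, being lost without any 1 of the 9 libraries other than ImC replicate 3 (adjusted p up to 0.278). Within each library, Egln3 took 13.5%, 18.5% and 23.4% of the reads of Egln1 and Egln3 in ImC, 3.46% to 3.80% in MatC and 6.17% to 7.23% in Bone. The 3 tissues did not overlap on this share (exact permutation p = 0.1 for each pair, adjusted p = 0.2).

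The carbonic anhydrases, membrane enzymes that help cells shed acid and are known HIF targets, had the largest falls of all members. Car9 (chromosome 4, 43506966 to 43513729) measured 13.2, 61.5 and 4.13 CPM in ImC and 0 to 0.282 in the other 6 libraries, with 1456 reads in ImC, 5 in MatC and 4 in Bone. Every ImC library stood far above every library of the other tissues. The fitted log2 fold change was -7.33 ± 1.28 in MatC (adjusted p = 0.0114) and -8.09 ± 1.30 in Bone (adjusted p = 0.00199). Car9 passed the filter on low counts through its 3 ImC libraries alone, so a difference was built into its being tested, and these calls are a description and no support. Its low end rests on so few reads that the size is uncertain. Car12 (chromosome 9, 66713686 to 66766845) measured 19.2, 30.0 and 4.20 CPM in ImC and 3.64, 5.64 and 10.5 in MatC, and Bone held 1 read in all. The 2 cartilages overlapped and did not differ by the test (adjusted p = 0.228). Against that 1 read, the ratio of pooled reads was 928 for ImC (95% counting interval 166 to 36709) and 256 for MatC (45.3 to 10161), intervals that cover counting error only since the RNA was amplified. Both falls to Bone were called (edgeR, adjusted p = 0.000617 against ImC and 0.00474 against MatC), but Car12 passed the filter through its cartilage libraries alone, and these calls too are a description. Of the reads of these 2 genes, Car9 took 52.5% ± 13.5 in ImC and 2.27% ± 2.39 in MatC (exact permutation p = 0.1, adjusted p = 0.2), and per length 77.6% and 6.86%.

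Among secreted factors, Vegfa, the principal angiogenic growth factor, measured 48.1, 106 and 72.6 CPM in ImC, 30.1, 49.7 and 106 in MatC and 24.5, 29.0 and 29.3 in Bone. Bone was the lowest tissue without overlap, by 2.74-fold against ImC (log2 fold change -1.45 ± 0.45, adjusted p = 0.0335), a call lost without ImC replicate 2 or 3 or any 1 Bone library (adjusted p up to 0.203 over the alternatives). Adm, which encodes the vasodilator adrenomedullin, was near the limit of detection, at 0.167, 2.88 and 0.0712 CPM in ImC, 2 reads in all of MatC and 0.596, 0.942 and 1.01 CPM in Bone, and was not called (adjusted p = 0.134, 0.182 and 0.838). The pooled ratio against those 2 MatC reads was 20.4 for ImC (95% counting interval 5.41 to 172) and 12.9 for Bone (3.35 to 110). These intervals cover counting error only and leave out the spread among libraries. ImC replicate 2 held 58 of the 61 ImC reads, so the ratio for ImC rests on 1 library. Adm passed the filter on low counts only with its Bone libraries, so its difference between Bone and MatC was in part built in.

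Ankrd37 and Ndrg1, both hypoxia-induced in many cell types, went the other way from the glycolytic genes. Ndrg1, a stress- and differentiation-linked gene, measured 1.58, 10.7 and 1.21 CPM in ImC, 7.05, 9.80 and 3.11 in MatC and 19.7, 23.6 and 18.9 in Bone. Bone was the highest tissue without overlap, by 4.55-fold against ImC (log2 fold change 2.18 ± 0.75, adjusted p = 0.0493), a call kept in 8 of 17 alternatives and lost without any Bone library, ImC replicate 1 or 3, or MatC replicate 1 or 2 (adjusted p up to 0.122 over the alternatives). Ankrd37, an ankyrin repeat gene, measured 2.92, 5.86 and 0.142 CPM in ImC, 11.4, 4.44 and 4.24 in MatC and 11.4, 26.8 and 20.3 in Bone; it was 6.46-fold higher in Bone than in ImC (2.69 ± 0.88, adjusted p = 0.0416), a call lost without ImC replicate 1, MatC replicate 2 or any Bone library (adjusted p up to 0.125). Ankrd37 passed the filter on low counts only with its MatC or Bone libraries, since 2 of its 3 ImC libraries reached the cutoff. Its call is therefore a description and no support. Its exons overlap Ufsp2 on the opposite strand, which reached 73.4 CPM, so its reads may not all be its own.

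Bnip3, a receptor that marks mitochondria for removal, measured 110, 267 and 16.5 CPM in ImC, 226, 63.9 and 242 in MatC and 25.3, 66.4 and 62.7 in Bone, and was not called (adjusted p = 0.783, 0.234 and 0.233). P4ha1 and P4ha2 encode catalytic subunits of the collagen prolyl hydroxylase, which needs oxygen to make stable collagen. P4ha1 was 251 ± 30.6, 236 ± 55.4 and 321 ± 36.4 CPM in ImC, MatC and Bone and P4ha2 175 ± 116, 165 ± 76.7 and 189 ± 41.2, with no call, and P4ha1 took 62.0%, 59.5% and 63.2% of their reads. P4ha3, of the same family but not a member, was 55.3 ± 33.3, 10.2 ± 2.63 and 5.51 ± 1.04 CPM. It was called lower in MatC against ImC (log2 fold change -2.43 ± 0.49, adjusted p = 0.0183, up to 0.0748 over the alternatives). Its fall from ImC to Bone was called under all 17 alternatives.

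**Figure D4:**
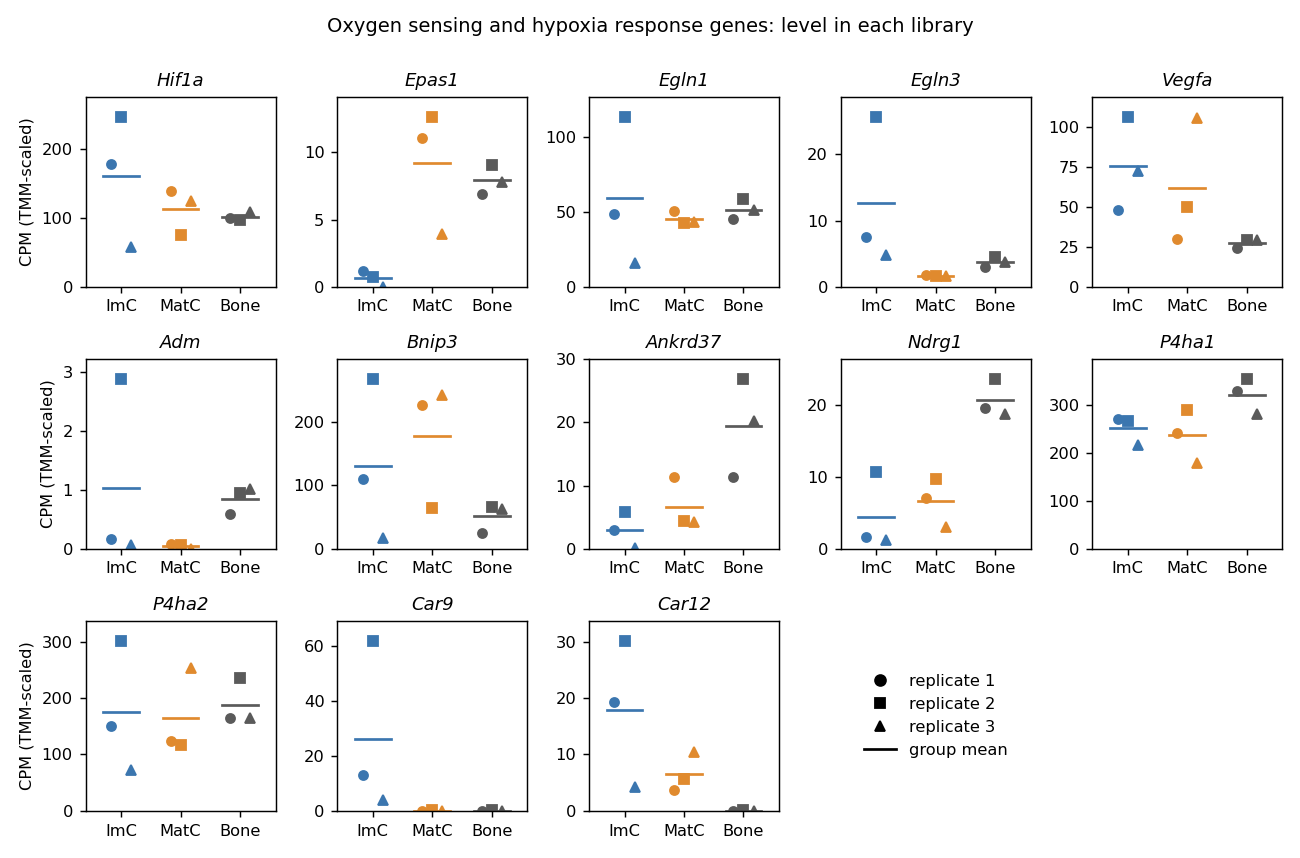
Level of each of the 13 oxygen sensing and hypoxia response genes (y axes, TMM-scaled CPM, each panel from 0) in the 3 ImC, 3 MatC and 3 Bone libraries, with 1 symbol per replicate number and a line at the mean. Epas1 is at most 1.17 CPM in ImC, Car9 and Egln3 are highest in ImC, Car12 is at most 0.0856 CPM in Bone, and Ndrg1 and Ankrd37 have their highest means in Bone.

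The immature cartilage libraries differed among themselves at many members. This contrast of libraries was chosen after their values were seen and is given without a test. ImC replicate 2 exceeded replicate 3 for 30 of the 36 members, 83.3%, against 50.7% of all genes tested, and was at least 4-fold higher for 15 members, 41.7%, against 13.3%, counting Epas1, which had no read in replicate 3. Replicate 3 was the lowest of the 3 ImC libraries for 24 members, 66.7%, against 43.6% of all genes, and replicate 2 the highest for 27, 75.0%, against 35.1%. Replicate 2 was the highest and replicate 3 the lowest of the 3 ImC libraries for 21 members, 58.3%, against 28.1% of all genes. The median ratio of replicate 2 to replicate 3 was 1.79 over the 35 members with a read in both and 0.996 over 13299 genes. The ratio was 41.1 for Ankrd37, 40.4 for Adm, 16.2 for Bnip3, 14.9 for Car9 and 11.9 for Pgk1. It was 7.19 for Pgam1, 7.15 for Car12, 7.14 for Egln1, 5.21 for Ldha and 4.28 for Hif1a. The pathway did not shift as a block, since the ratio was 0.991 for Pkm, 1.19 for Eno1, 0.890 for Gpi1, 0.717 for Pfkl and 0.656 for Slc16a3. Beside these values, mitochondrial genes took 32.0% of counts in replicate 2 and 55.0% in replicate 3, and the red cell markers summed to 21.0 and 1424 CPM; the part of these in the spread was not tested.

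**Figure D5:**
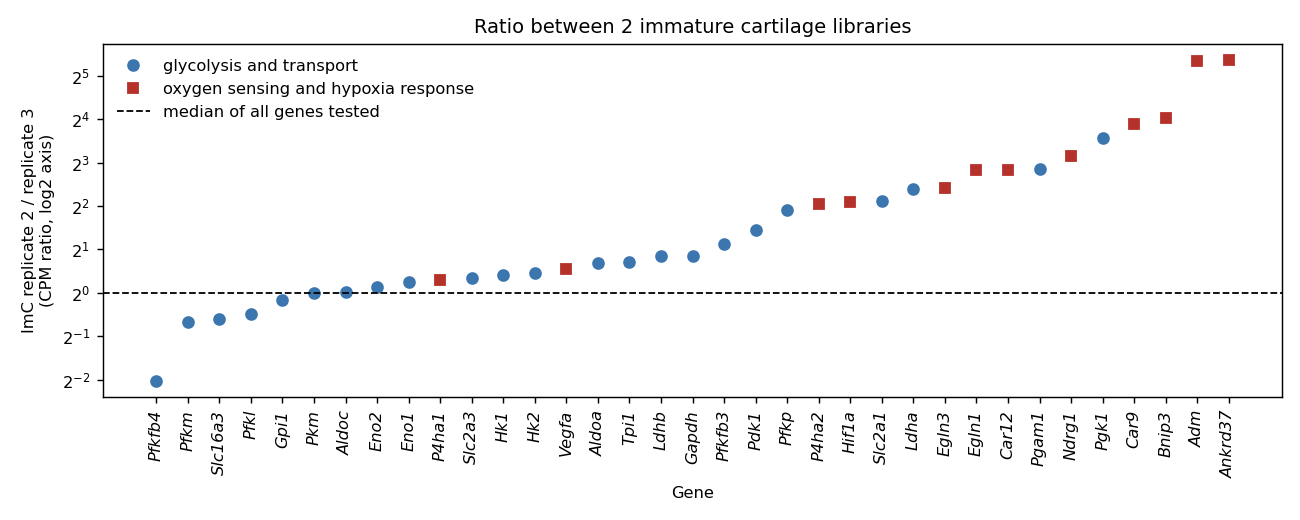
Ratio of the level in ImC replicate 2 to that in ImC replicate 3 (y axis, log2 scale) for the 35 members with a read in both libraries, sorted by ratio. Ankrd37 and Adm stand at 41.1 and 40.4, Pkm at 0.991 and Pfkfb4 at 0.244.

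MatC replicate 3, the library with the fewest counts outside the mitochondrial genes, was the highest of the MatC libraries for 19 of the 36 members, 52.8%, against 32.9% of all genes. It held 1025 CPM of Pkm against 272 and 388 in replicates 1 and 2, 107 CPM of Pfkl against 29.7 and 37.4, and 67.3 CPM of Slc16a3 against 17.7 and 22.5. Without it, Car12 alone of the 3 members called in Bone against MatC was still called, and the number of members called in MatC against ImC was still 5.

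Further genes of these pathways were counted beside the members. Of 34 further glycolysis, lactate and pyruvate genes, 24 passed the filter on low counts, and all 9 of these that were called in Bone against ImC rose, 37.5% of the 24 where 14.3% of all genes rose and 16.8% fell. Their median log2 fold change was 0.72 and that of all genes -0.02. They included Pdk4, a pyruvate dehydrogenase kinase linked to fat use, at 0.574 ± 0.194 in ImC, 8.0 ± 3.59 in MatC and 14.4 ± 4.21 CPM in Bone (log2 fold change 4.61 ± 0.53 in Bone against ImC, adjusted p = 0.000408, and 3.74 ± 0.52 in MatC against ImC, adjusted p = 0.00424). Pdk4 passed the filter on low counts only with its MatC or Bone libraries, so these calls are a description and no support. Slc2a12, which encodes the transporter GLUT12, rose from 0.394 ± 0.108 CPM in ImC to 21.6 ± 1.25 in Bone (5.76 ± 0.82, adjusted p = 0.00115) and was 2.17 ± 1.88 in MatC (Bone against MatC 3.18 ± 0.71, adjusted p = 0.0285, a call lost without MatC replicate 2 or any Bone library, adjusted p up to 0.114 over the alternatives). Slc2a12 thus rose between the tissues in which Slc2a1 and Slc2a3 fell. Slc2a12 passed the filter on low counts only with its Bone libraries, as did another of the 9 called genes. A difference was therefore in part built into its being tested, and its calls are a description and no support. Mpc2, a subunit of the mitochondrial pyruvate carrier, rose by 1.54 ± 0.31 in Bone against ImC (adjusted p = 0.00605). Its call was lost when libraries were scaled by total counts alone (adjusted p = 0.0767).

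Of 16 pentose phosphate and glycogen genes, 1 rose and 2 fell in Bone against ImC (6.25% and 12.5%, under the 14.3% and 16.8% of all genes), and 1 fell in Bone against MatC (6.25%, where 4.69% of all genes fell). Pygl, the liver glycogen phosphorylase, was 38.6 ± 28.8 in ImC, 78.3 ± 60.7 in MatC and 5.60 ± 1.24 CPM in Bone, with a log2 fold change of -3.80 ± 0.78 in Bone against MatC (adjusted p = 0.0206), a call lost without MatC replicate 3 or any Bone library (adjusted p up to 0.109), and of -2.79 ± 0.74 in Bone against ImC (adjusted p = 0.0185), lost without ImC replicate 3 or any Bone library (adjusted p up to 0.0711). The muscle form Pygm rose by 2.41 ± 0.72 and glycogen synthase Gys1 fell by 1.36 ± 0.44 in Bone against ImC (adjusted p = 0.0298 and 0.0389), and both calls were lost when any 1 Bone library was left out. Pygm passed the filter on low counts only with its Bone libraries, so its call is a description and no support.

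Of 39 further oxygen sensing and hypoxia genes, 5 rose and 9 fell in Bone against ImC, 5 rose and 3 fell in MatC against ImC, and 1 rose and 3 fell in Bone against MatC. These are 12.8% and 23.1% in Bone against ImC (all genes 14.3% and 16.8%), 12.8% and 7.69% in MatC against ImC (all genes 5.41% and 2.29%) and 2.56% and 7.69% in Bone against MatC (all genes 1.36% and 4.69%), and the median log2 fold change in Bone against ImC was 0.03. Lox, which encodes the collagen crosslinking enzyme lysyl oxidase, rose from 5.50 ± 4.70 CPM in ImC to 312 ± 244 in MatC and 1276 ± 83.4 in Bone, and Cited2, a feedback inhibitor of HIF, from 5.09 ± 0.940 to 24.9 ± 0.852 and 33.0 ± 5.28 (adjusted p = 0.0119 and 0.00247 in MatC against ImC). Scaling by total counts alone ended the call of Cited2 in MatC against ImC (adjusted p = 0.110). Plod2, a collagen lysyl hydroxylase, was 546 ± 147, 312 ± 113 and 102 ± 10.6 CPM in ImC, MatC and Bone (log2 fold change -2.43 ± 0.37 in Bone against ImC, adjusted p = 0.00156). The same scaling ended this call of Plod2 (adjusted p = 0.0668). Bhlhe41, a transcriptional repressor, was 16.5 ± 12.7 in ImC, 5.14 ± 1.26 in MatC and 0.876 ± 0.132 CPM in Bone (-4.23 ± 0.61 in Bone against ImC, adjusted p = 0.00125). Selenbp1, a selenium-binding protein gene, was lowest in MatC, at 20.4 ± 4.96, 3.79 ± 1.61 and 23.2 ± 4.15 CPM (-2.37 ± 0.38 in MatC against ImC, adjusted p = 0.00815, and 2.56 ± 0.38 in Bone against MatC, adjusted p = 0.00512), the only gene of these lists that was called in opposite directions in the 2 steps. Its call in MatC against ImC was lost with total counts alone or with only these 2 groups fitted (adjusted p up to 0.0541).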

How the data were processed

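RNA from 9 libraries was amplified before a TruSeq preparation that does not mark strand, per the labels' protocols. The authors deposited a table of raw counts, as whole reads for each of 43472 gene symbols, and 0 of its entries name no gene. A second table that the authors deposited holds a score, normalized counts given as whole numbers, used here only to read back its scaling factors for an alternative. The genome build was mm10 and the tools named were edgeR, HTSeq, Bowtie2, TopHat2 and Trimmomatic 0.30, per the submitters' processing notes; which tool did what, in which order, is not given in the sources used here. Groups and replicate numbers came from the titles.

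Counts were tested with edgeR 4.0.16 (R 4.3.3) by its quasi-likelihood test. A filterByExpr filter (minimum count 10) passed 14257 genes, among them all 36 members. Car9 passed through ImC only, Car12 through cartilage only and Adm only with its Bone libraries. Epas1 and Ankrd37 passed only with their MatC or Bone libraries, as 2 of the 3 ImC libraries reached the cutoff for each. Of the further genes named, Slc2a12 and Pygm passed only with their Bone libraries, and Pdk4 only with its MatC or Bone libraries. The differences of these genes from the other tissues were in part fixed by the filter. All 9 libraries entered 1 fit, with TMM factors and Benjamini-Hochberg adjustment over all genes tested, and an adjusted p under 0.05 was called. The SE was taken as |log2 fold change| divided by √F. Levels are CPM with TMM factors. Values are the mean ± SD of 3 libraries. Read shares of isoforms were compared by a two-sided exact permutation test. Exon lengths and gene coordinates are from GENCODE M21 (GRCm38). The alternatives were DESeq2 1.42.0, other scalings, no filter, the replicate block, only the 2 groups compared, and each library left out; adjusted p ranges given in the text are over these 17. Scripts were tested on simulated data.

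Every member could be named; from each further pathway list, up to 3 called genes per comparison and direction with the smallest p. Egln2, Eno3 and P4ha3 are also named, as genes of a family whose share leaves them out. The members and lists were chosen with earlier results of these data known. Tigar, in the first further list, was not matched in the table.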

Additional observations from a re-analysis of the deposited data

How the results depend on the processing

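Of the 108 pairs of a member and a comparison, 25 were called, 7 of them under every alternative (Hk2, Slc16a3, Epas1, Car9 and Car12 in Bone against ImC, Car9 in MatC against ImC, Car12 in Bone against MatC; those of Car9 and Car12 show no stability, since these genes passed the filter only through the tissues where they are high), 15 in some alternative only and 68 in none. Epas1 passed the filter only with its MatC or Bone libraries, so its call is likewise a description. Scaling by total counts alone moved the median log2 fold change of all genes to -0.51, 0.95 and 0.46 for MatC against ImC, for Bone against MatC and for Bone against ImC, ended 17 of the 25 calls, left 358, 297 and 2073 genes and 1, 1 and 5 members called, put 53.4%, 40.1% and 59.0% of the calls on the higher side against 70.2%, 22.5% and 46.0%, turned the members' median in Bone against MatC from -0.50 to 0.62, and turned Ndrg1 in MatC against ImC to -0.0443, Hk2 in Bone against MatC to 0.000998 and Aldoc in Bone against MatC to 0.12. Over all alternatives, the sign also changed at least once in 40 of the 68 pairs that were never called. In MatC against ImC, 1099 genes and 5 members were called, against 1690 genes without the filter on low counts, 205 genes and 1 member with only the 2 groups, 2230 genes with DESeq2, and 355 to 1240 genes and 2 to 5 members with 1 library left out. In Bone against MatC, 863 genes and 3 members were called, against 1504 genes and 5 members without the filter, 7 members with only the 2 groups (36.7% of 1204 genes higher), 1935 genes and 8 members with DESeq2, and 167 to 1702 genes and 1 to 6 members with 1 library left out. In Bone against ImC, leaving out 1 library gave 2343 to 5408 genes and 8 to 19 members, against 4432 and 17, with 8, 10 and 9 members without Bone replicate 1, 2 and 3. Labels do not say that equal replicate numbers share an animal or batch, and the deviations of same-numbered libraries correlated at -0.131 to 0.240; with the replicate block, 725, 814 and 4088 genes and 4, 2 and 16 members were called. Not every library correlated best with its own number. Counting isoforms per length moved 30 of 61 mean shares by more than their SD. Leaving out a library moved 0 of 183, which was fixed in advance and shows no stability. Dropping 1 of 3 libraries cannot shift their mean by a full SD. The depth of MatC replicate 3 limits what can be seen of Car9, Adm and Epas1, and the cause of these changes was not tested.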
